A study of Danio rerio with 4 samples.

Results

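The RNA-binding protein gene *rbm24a* and its paralogs *rbm24b* and *rbm38* were followed across single cells of shield-stage zebrafish, in siblings and in maternal *rbm24a* mutants (M*rbm24a*). The members were found by symbol, with entries that carry a numeric suffix added, which gave 4 entries (*rbm24a*, *rbm24b*, *rbm24b_1* and *rbm38*) among the 47394 genes of the matrix. Their levels were compared between groups of cells that had a value over 0.5 for a marker gene, namely *tbx6l* (paraxial), *eve1* (ventral margin), *twist1a* (lateral), *noto* (axial), *sox32* (endoderm), *foxi1* (epidermal), *her3* (neural) and *krt92* (enveloping layer, EVL), and between the genotypes within each group. A value over 0.5 stands for a unique molecular identifier (UMI), that is a counted mRNA molecule, that remained after the ambient RNA had been subtracted.

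Rbm24 and Rbm38 are closely related proteins with an RNA recognition motif. They bind U-rich or GU-rich stretches of mRNAs and act on splicing, mRNA stability, translation and the length of the poly(A) tail. Rbm24 is best known from heart, skeletal muscle, lens and inner ear, whereas mammalian RBM38 (also called RNPC1) is a target of p53 that binds mRNAs of the p53 family and of *CDKN1A*. The study asked about Rbm24a that the mother stores in the egg and its part in germ plasm, the cytoplasm that marks future primordial germ cells (PGCs).

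Single cells of whole embryos were captured in droplets and their mRNAs were counted by tags at the 3′ end (10x Genomics). There were 4 libraries, 2 of siblings, whose genotype is labelled wild type, and 2 of M*rbm24a* embryos, and 33 embryos are stated for each sample. Nothing says that the libraries of a genotype came from separate clutches, so the p-values measure only the spread between these libraries, which may be technical. M*rbm24a* embryos came from mothers with an RFP knock-in at *rbm24a*, Cas9 driven by the oocyte promoter *zpc* and a transgene with guide RNAs against *rbm24a* exons, and were chosen as positive for the transgene's BFP and negative for Rbm24a-RFP. The editing takes place in the oocyte and is not complete in all of them, and the mutants differ from maternal-zygotic mutants, which also lack zygotic Rbm24a.

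The matrix held 14455 cells, between 3402 and 3952 per library, with 40176506 to 61973441 UMIs per library and a median of 9778 to 15667 UMIs per cell. Sibling 2 stood apart by 20.7% of cells with fewer than 1000 UMIs, against 0% to 7.61% in the others, and 16 barcode sequences occurred in 2 libraries (32 cells). The marker groups were not separate cell types. Of all cells, 51.8% had at least 2 of the 8 markers and 16.2% had none, and only 7.46% to 9.30% of *tbx6l* cells had no other marker. Further markers of each lineage were higher with than without the group's marker in all 4 libraries, for example *msgn1* with *tbx6l* (618 against 103 UMIs per 1000000 UMIs, CPM, as means of the libraries) and *sox17* with *sox32* (25.9 against 1.94 CPM). The exceptions were *wnt8a*, *zic2b*, *cdx1b* and *krt5_1*, which were at or near 0, and *gata3* and *dlx5a*, which were higher in 3 of 4 libraries.

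Few cells of any lineage held *rbm24a* mRNA. A total of 89 of 14455 cells (0.616%) had a value over 0.5, the summed value was 82.3 UMIs and the highest value in a cell was 1.97. Over whole libraries both siblings (0.438 and 0.469 CPM) were above both M*rbm24a* libraries (0.381 and 0.314 CPM), but the exact Poisson 95% intervals, which cover counting error only, overlapped (0.287 to 0.634 CPM in sibling 1 and 0.230 to 0.613 in M*rbm24a* 1). The log2 fold change (M*rbm24a* minus sibling) was −0.33 (SE 0.31, adjusted p = 0.616, edgeR's quasi-likelihood test over all genes, as throughout), in a comparison that called 1.1% of 17768 genes. In whole libraries, fewer cells of a type and less mRNA per cell cannot be told apart. The guides target exons and the reads count 3′ ends, so an edited transcript can still be counted. By qRT-PCR the paper reports less *rbm24a* transcript in embryos chosen as negative for RFP and positive for BFP. Its estimate of remaining wild-type transcript was made at the 1-cell stage, whereas the cells here are of the shield stage. From published RNA-seq data the paper proposes that the maternal transcript falls steeply once the embryo's own genome is active. The measurements are thus not of the same stage. At the few counts here, the *rbm24a* level is no check of the genotype labels.

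The *rbm24a* level did not order the lineages. In the means over the libraries it ran from 0.343 CPM in *tbx6l* cells and 0.367 in *twist1a* cells through 0.374 in *her3*, 0.391 in *sox32*, 0.400 in *noto* and 0.445 in *eve1* cells to 0.473 CPM in *foxi1* cells, and each neighbouring pair of groups overlapped in the range of its libraries. In *foxi1* cells alone the libraries spanned 0.107 to 0.726 CPM, which is wider than the spread of the group means. *krt92* cells gave 1 cell with *rbm24a* among 982 (0.102%, pooled level 0.0761 CPM, where 3 counts would give 0.324 CPM), but their median depth was 868 UMIs in sibling 2 and 3678 to 11770 in the others, against 15520 to 17593 in *eve1* cells. The share of *eve1* cells with *rbm24a* was 0.968%, that of *tbx6l* cells 0.860% and that of *her3* cells 0.938%. Cells with *rbm24a* had a median of 19008 UMIs against 12720 in all cells, and the part of depth in these shares was not tested. Thinned to 5000 UMIs per cell, which leaves out 4188 shallower cells, the whole-library share was 0.238% (mean of 4 libraries).

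*rbm24a* passed the filter on low counts in only some comparisons. For marker cells against the other cells, that filter took both kinds of sums together, so passing did not follow the counts in the marker group. *eve1* cells held the most *rbm24a* (56.1 UMIs), but it did not enter that test for them. Against the other cells the log2 fold change of *rbm24a* was −0.06 in *tbx6l* cells (SE 0.33, adjusted p = 0.921, edgeR) and 0.05 in *sox32* cells (SE 0.25, adjusted p = 0.938, edgeR). Between the genotypes it was −0.58 in *eve1* cells (SE 0.34, adjusted p = 0.557, edgeR) and −0.44 in *sox32* cells (SE 0.44, adjusted p = 0.719, edgeR). In *eve1* cells the siblings were at 0.528 and 0.538 CPM and the M*rbm24a* libraries at 0.397 and 0.318, from 12.1 to 19.6 UMIs per library, a difference that was not detectable at this depth.

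Cells with PGC markers were looked at apart, since the study is about the germ line. In cells with at least 3 of 5 PGC markers (*nanos3*, *dnd1*, *ca15b*, *tdrd7a* and *dazl*), *rbm24a* was at 0 UMIs in 47 cells of sibling 1, 15 of sibling 2 and 22 of M*rbm24a* 2, and at 0.942 UMIs in 22 cells of M*rbm24a* 1. A count of 3 would have given 2.12 CPM in sibling 1 and 8.49 CPM in sibling 2, so that a level several times that of the whole library could have gone unseen. These cells were not alike in the genotypes: the 22 cells each of M*rbm24a* 1 and 2 summed to 1070460 and 1917890 UMIs, the 47 cells of sibling 1 to 1415840 and the 15 of sibling 2 to 353434, and with at least 4 of the markers there were 20 and 9 cells in siblings against 2 and 3 in M*rbm24a*. The cells with at least 3 markers held *rbm38* at 119, 97.7, 101 and 89.6 CPM with the siblings first, values that are not compared for this reason.

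The duplicate *rbm24b* was as sparse. Its first entry was found in 73 cells and *rbm24b_1* in 30, together 101 cells (0.699%) and 95.1 UMIs. Reads that fit both entries could have been lost or split, so the entries are uncertain apart and were also summed. In whole libraries the first entry was at 0.377 and 0.307 CPM in siblings and at 0.314 and 0.278 CPM in M*rbm24a*. Both entries summed were at 0.452 and 0.482 CPM in siblings and 0.431 and 0.467 CPM in M*rbm24a*. The genotypes overlapped either way, with a log2 fold change of −0.18 for the first entry (SE 0.35, adjusted p = 0.825, edgeR). In the sum of both entries, the group means lay between 0.397 CPM in *noto* cells and 0.546 CPM in *twist1a* cells, apart from *krt92* cells (0.244 CPM), of which 2 of 982 (0.204%) had a value. In *tbx6l* cells the sum was 0.430 and 0.473 CPM in siblings and 0.485 and 0.641 CPM in M*rbm24a*, with counting intervals that overlapped. None of the 89 cells with *rbm24a* had *rbm24b* as well, and both genes are too sparse to read anything from this.

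**Figure D1:**
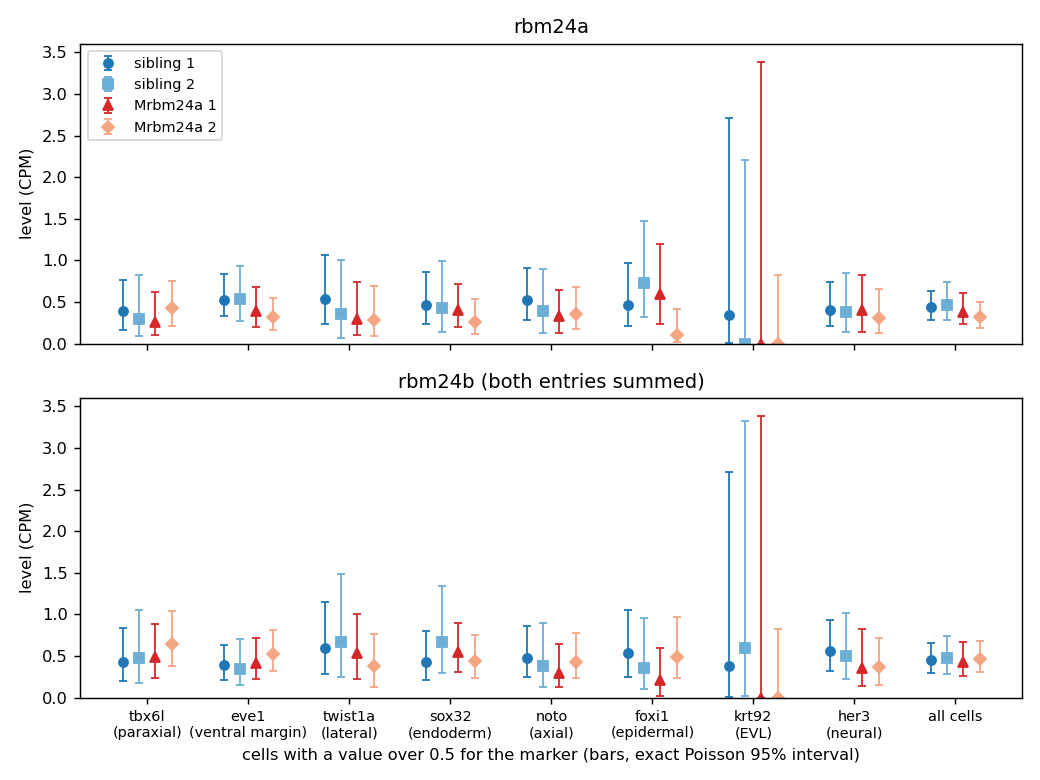
Level of *rbm24a* (top) and of both *rbm24b* entries summed (bottom) in CPM for each marker group and for all cells, with 1 point per library and exact Poisson 95% intervals of the rounded counts as bars. The intervals overlap between lineages and genotypes, and in *krt92* cells several points are at 0 with wide intervals.

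*rbm38* was read in far more cells and differed between lineages. It summed to 24070 UMIs in 6202 cells (42.9%), and its whole-library level was 114 and 125 CPM in siblings and 118 and 110 CPM in M*rbm24a*. It was highest in *tbx6l* cells, with 254 and 296 CPM in siblings and 185 and 180 CPM in M*rbm24a*, and next in *eve1* cells, with 155, 178, 143 and 136 CPM in the same order of libraries. *her3* cells had the lowest mean of the 8 groups, with 69.7, 56.3, 77.9 and 70.8 CPM. Between them came *twist1a* (117 ± 8.50 CPM, mean ± SD of 4 libraries), *sox32* (110 ± 6.46), *noto* (93.8 ± 5.94), *foxi1* (76.0 ± 9.09) and *krt92* cells (70.7 ± 10.4). The ranges of *twist1a* and *sox32* cells overlapped, as did those of *foxi1*, *krt92* and *her3* cells, whereas the other neighbours in this order were apart in all 4 libraries. The *krt92* value mixed shallow cells near the cutoff with clear ones: in sibling 2, 365 of 579 *krt92* cells had 1 *krt92* UMI (median depth 752 UMIs, 150 CPM of *rbm38*), while cells with 10 or more *krt92* UMIs were at 47.4, 36.4, 69.7 and 59.3 CPM in the 4 libraries, siblings first (mean 53.2 CPM). At the same cutoff, cells with 10 or more *her3* UMIs had a mean of 42.1 CPM, from 4 to 40 cells per library. Cells without any of the markers had 43.8 to 54.2 CPM.

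**Figure D2:**
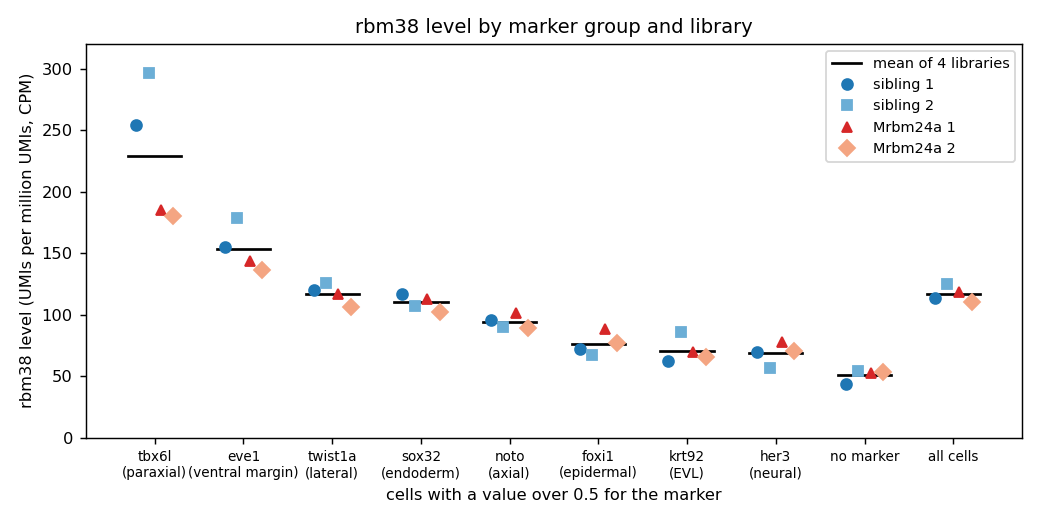
Level of *rbm38* in CPM in each marker group, in cells with no marker and in all cells, with 1 point per library and the mean of the 4 libraries as a line. *tbx6l* cells lie between 180 and 296 CPM, above all other groups, and *her3* cells between 56.3 and 77.9 CPM.

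Each group was tested against the other cells of the same libraries, with the library as a block. Paraxial *tbx6l* cells had a 4.63-fold higher *rbm38* level (log2 fold change 2.21, SE 0.18, adjusted p = 0.000724, edgeR), which ranked 11th from the top among 15535 genes, while 12.4% of the genes were called higher and 10.1% lower. In *eve1* cells *rbm38* was 2.72-fold higher (log2 1.44, SE 0.10, adjusted p = 0.00099, edgeR, rank 19 of 15347), where 13.7% were called higher and 10.9% lower. It was lower in *her3* cells (log2 −1.02, SE 0.12, adjusted p = 0.0011, edgeR, where 11.7% of genes were called lower and 8.64% higher), in *foxi1* cells (log2 −0.75, SE 0.09, adjusted p = 0.0129, edgeR, with 1.89% called lower and 1.3% higher) and in *noto* cells (log2 −0.43, SE 0.05, adjusted p = 0.00175, edgeR, with 3.37% called lower and 4.17% higher). The groups that did not pass were *twist1a* (log2 0.11, SE 0.04, adjusted p = 0.145, edgeR, with 6.7% of genes called higher and 2.29% lower), *sox32* (log2 −0.05, SE 0.06, adjusted p = 0.661, edgeR, with 7.24% called lower and 11.1% higher) and *krt92* (log2 −0.57, SE 0.22, adjusted p = 0.0823, edgeR, with 6.62% called lower and 16.5% higher). The *foxi1* call was lost without M*rbm24a* 2 (adjusted p = 0.0503, edgeR), and the *krt92* difference passed without it (log2 −0.67, adjusted p = 0.00636, edgeR).

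These groups share cells. *twist1a* and *sox32* cells with no other marker of the 8 were set against all cells without *twist1a* or without *sox32*, which kept their *tbx6l* cells. *rbm38* was below those (log2 −0.46, adjusted p = 0.00163, and log2 −1.03, adjusted p = 6.08e-12, edgeR), where it had not passed in all *twist1a* and *sox32* cells. Taking *tbx6l* cells from the single-marker side only lowers that side by construction, so nothing is concluded from these values. Cells of the other lineages that lacked *tbx6l* had lower levels than those that had it. *eve1* cells without *tbx6l* were at 55.9, 61.2, 83.7 and 66.9 CPM and *eve1* cells with it at 261, 313, 185 and 182 CPM, with the siblings first. *tbx6l* cells without *eve1* kept 193 ± 20.1 CPM (mean ± SD, n = 4). The same split gave 155 against 69.0 CPM in *twist1a* cells, 158 against 58.3 in *sox32* cells, 148 against 53.6 in *noto* cells, 138 against 34.8 in *foxi1* cells and 125 against 32.4 in *her3* cells, as means of the libraries with and without *tbx6l*. In these 6 lineages every library was higher with *tbx6l*. Only 10 to 28 *krt92* cells per library had *tbx6l*, with 67.6 to 270.2 CPM, against 48.5 to 72.6 CPM in those without.

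**Figure D3:**
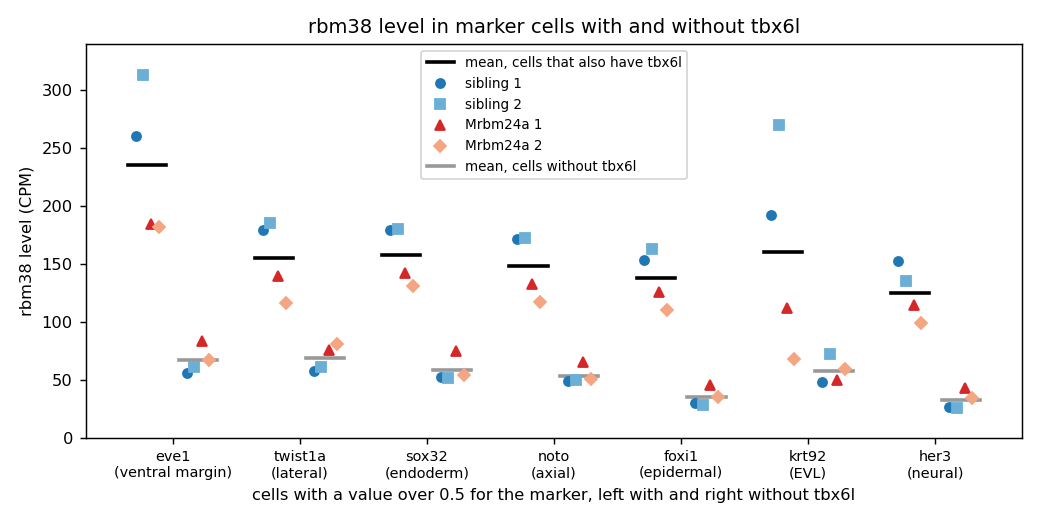
Level of *rbm38* in CPM in cells with each other marker, split into those that also have *tbx6l* (left) and those without (right), with 1 point per library and lines for the mean of 4 libraries. In *eve1* cells the means are 235 CPM with *tbx6l* and 66.9 CPM without.

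Across cells grouped by their UMIs, the mean of *rbm38* was higher with more *tbx6l*, a T-box transcription factor gene of the presomitic mesoderm. Cells with 0 *tbx6l* UMIs had 52.7 CPM of *rbm38* (mean of 4 libraries), those with 1 UMI had 138, those with 2 to 4 had 238, those with 5 to 9 had 312 and those with 10 or more had 501 CPM. The siblings were at 349 and 432 CPM for 5 to 9 UMIs and 559 and 567 for 10 or more. M*rbm24a* 2 did not rise past 2 to 4 UMIs until the last step, with 210.2, 197 and 243 CPM, and M*rbm24a* 1 had 271 CPM and then 634 CPM from only 11 cells. Cells with 5 to 9 *tbx6l* UMIs were deeper in the mutants, with a median of 30141 and 29814 UMIs against 19726 and 18411 in siblings, and the part of depth in this difference was not tested. With *eve1* UMIs the mean went from 60.3 CPM at 0 to 184 at 10 or more, but in M*rbm24a* 2 it went down from 166 CPM at 5 to 9 to 122 at 10 or more. With *her3* UMIs it went from 147 CPM at 0 UMIs down to 56.4 at 5 to 9, and with *foxi1* UMIs from 132 to 36.7 CPM over the same steps, the last with 6 to 33 cells per library. With *twist1a* UMIs it was 117 CPM at 0, 124 at 2 to 4 and 96.8 at 10 or more. With *sox32* UMIs it was 122 CPM at 0, 110 at 2 to 4 and 72.5 at 10 or more. The whole *sox32* group took in 21.2% of the cells of sibling 2 and 44.9% of those of M*rbm24a* 1, the lowest and highest share. These are descriptions of sums of cells of the same 4 libraries, and no test was run on them.

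**Figure D4:**
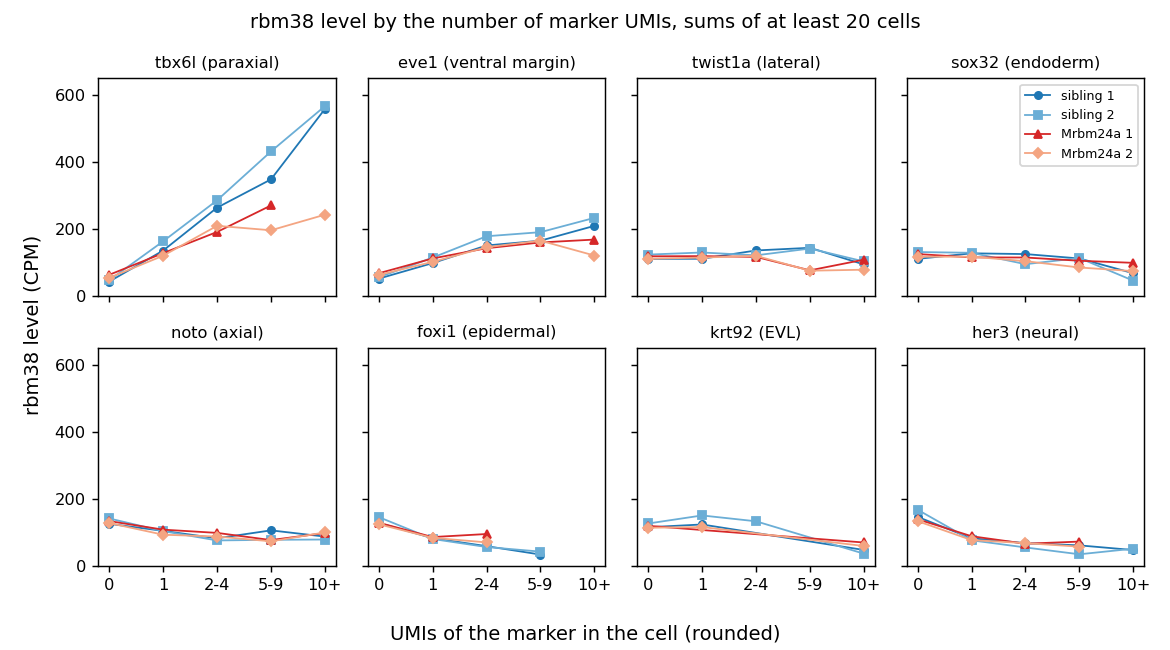
Level of *rbm38* in CPM against the rounded number of UMIs of each marker in the cell (0, 1, 2 to 4, 5 to 9, 10 or more), with 1 line per library and only sums of at least 20 cells drawn. The sibling lines rise with *tbx6l* up to 559 and 567 CPM. With *her3* and *foxi1* all lines start above 124 CPM and end lower, though single steps go up.

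The mRNA was also concentrated in these cells. *tbx6l* cells held 74.2%, 73.5%, 70.2% and 72.0% of all *rbm38* UMIs in the 4 libraries, siblings first, but 33.1%, 31.0%, 45.0% and 43.9% of all UMIs. Cells with at least 10 *rbm38* UMIs numbered 218, 150, 135 and 186, which is 3.97% to 6.17% of a library, and 89.6% to 93.0% of them also had *tbx6l*, as 89.4% to 90.9% had *eve1*. They were deep, with a median of 18874 to 27381 UMIs, and the part of depth in these shares was not tested. The highest value in a cell was 33.9 UMIs, in sibling 1.

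The share of cells with *rbm38* was highest in *tbx6l* cells too. A value of *rbm38* over 0.5 was found in 79.5% to 87.1% of *tbx6l* cells, 58.5% to 68.8% of *eve1* cells and 32.7% to 54.3% of *her3* cells across the libraries. *krt92* cells, the shallowest group, had the lowest pooled share of the 8 groups (27.0%) and ranged from 17.6% in sibling 2 to 53.7% in M*rbm24a* 1. Thinned to 5000 UMIs per cell, the ranges were 54.8% to 67.7% in *tbx6l* cells, 40.1% to 44.4% in *eve1* cells, 17.3% to 27.0% in *her3* cells, 19.0% to 28.7% in *foxi1* cells and 19.7% to 34.7% in *krt92* cells, of which 731 of 982 were left out. For comparison, the thinned share was 11.6% to 16.9% in cells with no marker. The thinning left out 377 of 3487 *tbx6l* cells and 282 of 3411 *her3* cells.

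Within the lineages, the largest difference between the genotypes lay where *rbm38* was highest. In *tbx6l* cells the siblings had 254 and 296 CPM and the M*rbm24a* libraries 185 and 180, without overlap. In an exact permutation test of 2 against 2 libraries such separation gives p = 0.33. The log2 fold change was −0.55 (SE 0.11, adjusted p = 0.175, edgeR), which did not pass the threshold in a comparison that called 0.109% of 14657 genes. DESeq2 (adjusted p = 0.00421) and edgeR without the filter on low counts (adjusted p = 0.00905) called it. Over 14 alternatives the log2 fold change ran from −0.66 to −0.20. The difference was smaller in cells of 5000 to 25000 UMIs (log2 −0.28) and in *tbx6l* cells with no other marker (log2 −0.20), and neither passed. The marker itself moved with it: *tbx6l* was at 133 and 171 CPM in sibling and 96.2 and 90.3 CPM in M*rbm24a* *tbx6l* cells, and *msgn1*, another presomitic mesoderm gene, at 779 and 846 against 423 and 424 CPM (log2 −0.90, adjusted p = 0.0676, edgeR). Of 7 entries of the paraxial marker list that were tested, 1 (*mespaa*) passed as lower and their median log2 fold change was −0.79, against 0.01 for all genes tested. The lateral list had a median of −0.84 with 2 of 8 called lower (*mespaa* and *mespab*). The medians were 0.37 for 5 endoderm, 0.76 for 12 EVL and 0.59 for 6 stress entries, none of which passed. More *tbx6l* cells of M*rbm24a* also had *sox32* (59.5% and 46.2%, against 40.9% and 29.1% in siblings). The part of the cells' makeup in the *rbm38* difference was not tested.

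In the other groups *rbm38* did not pass. *eve1* cells had 155 and 178 CPM in siblings and 143 and 136 CPM in M*rbm24a* (log2 −0.21, SE 0.09, adjusted p = 0.479, edgeR, with 0.0186% of genes called). *foxi1* cells were at 72.0 and 67.0 CPM against 88.2 and 76.6 (log2 0.31, SE 0.12, adjusted p = 0.505, edgeR, with 0.0144% called), and *her3* cells at 69.7 and 56.3 CPM against 77.9 and 70.8 (log2 0.28, SE 0.14, adjusted p = 0.404, edgeR, with 1.27% called). The genotypes did not overlap in these groups either, but the siblings were higher in *eve1* cells and the M*rbm24a* libraries in *foxi1* and *her3* cells. Such separation gives p = 0.33 in an exact permutation test of 2 against 2 libraries, so it says little by itself. How many of all genes separate in this way was not counted. *twist1a* cells (120 and 126 CPM in siblings, 116 and 106 CPM in M*rbm24a*) did not overlap either, while *sox32* (117 and 107 against 113 and 102), *noto* (95.3 and 89.6 against 102 and 88.8) and *krt92* cells (62.6 and 85.7 against 69.2 and 65.1) did. Without sibling 1, the *her3* difference passed (log2 0.51, adjusted p = 0.00688, edgeR). The log2 fold change was −0.09 in *twist1a*, 0.11 in *noto*, −0.03 in *sox32* and 0.02 in *krt92* cells, with adjusted p of 0.714 to 0.994 (edgeR). In these groups edgeR called 0 of 13900 genes in *twist1a* cells (923 at an unadjusted p under 0.05, and 41 called by DESeq2), 0.378% in *noto* cells, 1.45% in *sox32* cells and 0 of 9054 in *krt92* cells (463 at an unadjusted p under 0.05, and 5 by DESeq2). In whole libraries the log2 fold change was −0.02 (SE 0.08, adjusted p = 0.927, edgeR), so that the sum over all cells differed by less than the spread between replicates.

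Whether the genotypes differed in the step from marker-negative to marker-positive cells was tested as an interaction, which was added after seeing the values. In *tbx6l* cells the step was smaller in M*rbm24a* by 0.94 on the log2 scale (log2 −0.94, SE 0.11, adjusted p = 0.0817, edgeR, with 0.0244% of 16395 genes called). Cells without *tbx6l* had 43.8 and 47.9 CPM in siblings and 64.0 and 55.1 CPM in M*rbm24a*. The interaction passed under 7 of 13 alternatives and did not pass under 6, with log2 −1.09 to −0.52 over all 13. It passed with DESeq2 (adjusted p = 4.01e-06) and in cells of 5000 to 25000 UMIs (log2 −0.67, adjusted p = 0.0318, edgeR). Among the fits that left out a library, it passed without either M*rbm24a* library but not without either sibling library. In *her3* cells the drop was shallower in M*rbm24a* (log2 0.48, SE 0.12, adjusted p = 0.0148, edgeR), in a comparison that called 3.81% of 16318 genes (555 with a higher and 66 with a lower step in M*rbm24a*). This was lost without sibling 2 (log2 0.21, adjusted p = 0.806, edgeR) and with DESeq2 (adjusted p = 0.148). *tbx6l* was found in 33.7% and 30.2% of M*rbm24a* *her3* cells against 22.4% and 18.1% of sibling ones, and *her3* cells without *tbx6l* had 43.1 and 34.4 CPM of *rbm38* in M*rbm24a* against 26.2 and 25.9 CPM in siblings. Both M*rbm24a* libraries were likewise above both siblings in *eve1*, *twist1a*, *noto*, *sox32* and *foxi1* cells without *tbx6l*, but not in *krt92* cells. The margin was small in *noto* (51.0 against 49.7 CPM) and *sox32* cells (54.3 against 52.5 CPM), lowest M*rbm24a* against highest sibling. These groups share cells, and such separation gives p = 0.33 in an exact permutation test of 2 against 2 libraries. How many of all genes separate in this way was not counted. The part of *tbx6l* in the *her3* difference was not tested. Markers of other cells moved in *her3* cells between the genotypes, in a comparison that called 1.27% of 14344 genes. Of 11 EVL entries tested, 5 were higher in M*rbm24a* (*anxa1c* log2 4.83, *cyt1l* 3.80, *krt8_1* 3.12, *cldne* 2.56 and *zgc:153665* 2.47) with a list median of 2.56. However, *krt92* was found in only 1.24% and 3.04% of sibling and 0.303% and 3.01% of M*rbm24a* *her3* cells. Of 6 neural entries 1 was lower, *foxb1a* (log2 −1.11, adjusted p = 0.00202, edgeR). The ventral margin, axial and epidermal lists had 1 entry lower each and the PGC list 1 higher. The part of these markers in the *rbm38* difference was not tested. In *eve1* and *foxi1* cells the interaction did not pass (log2 −0.50, adjusted p = 0.697, and log2 0.39, adjusted p = 0.900, edgeR), though the *foxi1* interaction passed without sibling 1 (log2 0.55, adjusted p = 0.0215, edgeR) and in cells of 5000 to 25000 UMIs (log2 0.75, adjusted p = 0.034, edgeR). It was 0.14 in *noto* cells (adjusted p = 0.774, edgeR, with 0.0368% of genes called), where it passed in the opposite direction among cells with no other marker (log2 −0.65, adjusted p = 0.0013, edgeR), and −0.04 in *sox32* cells (adjusted p = 0.955, edgeR, with 2.47% called). For *eve1*, *twist1a*, *foxi1* and *krt92*, edgeR called 0 genes in the interaction (752, 301, 824 and 759 at an unadjusted p under 0.05, and 16, 0, 10 and 2 called by DESeq2).

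**Figure D5:**
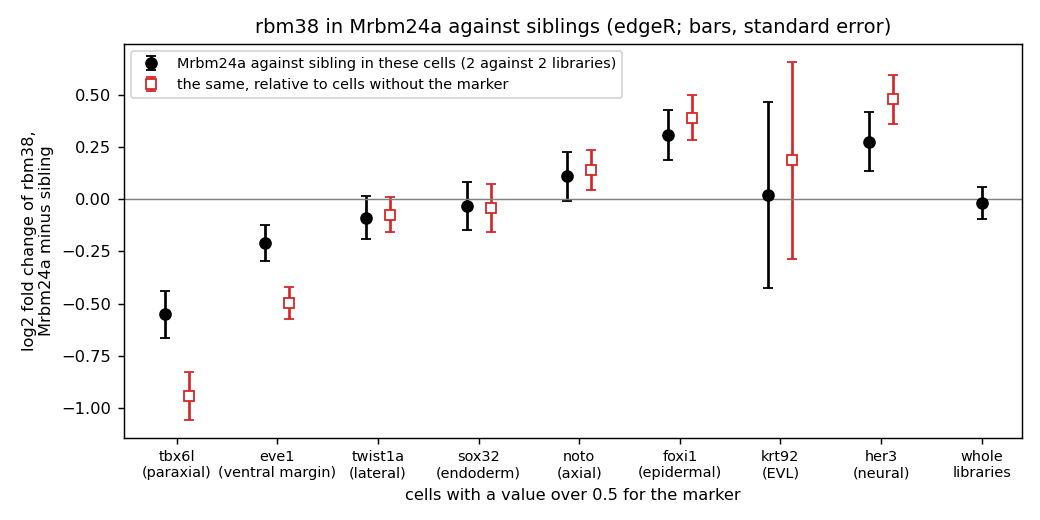
Log2 fold change of *rbm38* in M*rbm24a* against siblings within each marker group and in whole libraries (black) and relative to the cells without the marker (red, open), with standard errors from edgeR as bars. The values run from −0.55 in *tbx6l* cells to 0.31 in *foxi1* cells within the groups, none of which passed the threshold.

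The pattern most like that of *rbm38* was sought over all genes. Over 32 sums (8 marker groups in 4 libraries) and 6716 genes with a mean of at least 10 CPM, the highest Pearson correlations on the log2(CPM + 1) scale were with *helb* (r = 0.97), *ephb3b* (0.95), *irak3* (0.95), *tbx6l* (0.95), *si:dkey-261h17.1* (0.94), *msgn1* (0.92), *wu:fb77a09* (0.91), *cyp27c1* (0.91), *rgmb* (0.89) and *il17rd* (0.89). *helb* encodes a DNA helicase, *ephb3b* an ephrin receptor, *rgmb* a BMP co-receptor and *il17rd* an inhibitor of FGF signalling. For *helb* the group means ran from 168 CPM in *tbx6l* and 130 in *eve1* cells to 79.4 CPM in *her3* cells. The lowest correlations were with *thy1_1* (−0.71), *ak3* (−0.67), *midn* (−0.67), *btg3_1* (−0.66) and *tmem2* (−0.64). The cells of the *tbx6l* sums were chosen by *tbx6l* itself, so its own place in this ranking is partly built in. The sums share cells, libraries and depth, and the correlations are a description without a test.

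Other regulators of mRNA tails were measured beside *rbm38*. The list of cytoplasmic polyadenylation and poly(A) binding held 15 entries, of which 8 were tested in *tbx6l*, *eve1* and *her3* cells. In *tbx6l* cells, where 12.4% of all genes were called higher and 10.1% lower, 0 were higher and 2 lower, *cpeb2* (log2 −0.69, SE 0.12, adjusted p = 0.00558, edgeR) and *pabpc1b* (log2 −0.77, SE 0.15, adjusted p = 0.00893, edgeR), with a list median of 0.05, where that of all genes was near 0. The former binds the cytoplasmic polyadenylation element and the latter the poly(A) tail. Both were lower in *eve1* cells too (log2 −0.77 and −0.87) and in *her3* cells (log2 −0.92 and −1.03, where 11.7% of all genes were lower and 8.64% higher), in which *cpeb4b* was also lower and *parn*, a poly(A) ribonuclease gene, was higher. In *krt92* cells, with 16.5% of all genes called higher, 4 of 9 were higher, *cpeb4a* (log2 5.43), *pabpc1b* (4.15), *cpeb2* (3.52) and *cpeb4b* (1.61), and *sympk*, which the rule for named genes would leave out, was lower. *krt92* cells made up 4.84%, 16.2%, 1.97% and 4.18% of the libraries, siblings first. They were 1.81%, 3.90%, 1.04% and 2.86% of *tbx6l* cells and 1.24%, 3.04%, 0.303% and 3.01% of *her3* cells. The cells compared against thus held most *krt92* cells, and their part in the lower values was not tested.

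Orthologs of mRNAs that mammalian RBM24 or RBM38 bind had the most calls in *foxi1* cells. Of 9 entries tested there, 5 were higher and 0 lower (1.3% and 1.89% of all genes), *tp63* (log2 1.53, SE 0.27), *tp63_1* (1.36, SE 0.22), *mdm2_1* (0.87, SE 0.09), *mdm2* (0.67, SE 0.06) and *cdkn1a* (0.56, SE 0.04), the fifth of a rule of 4, with adjusted p of 0.0047 to 0.036 (edgeR) and a list median of 0.56, where that of all genes was near 0. Entries with a numeric suffix share a gene symbol, so *tp63* and *mdm2* each count more than once among the 5 and the 9. *tp63* encodes a p53 family factor of the epidermis, *mdm2* the ubiquitin ligase of p53 and *cdkn1a* a cell cycle inhibitor. In *tbx6l* cells 1 of 9 was higher and 2 were lower, beside 12.4% and 10.1% of all genes: *cdkn1a* was higher (log2 0.18) and *sox2*, a neural and pluripotency factor gene, and *tp63_1* were lower (log2 −0.49 and −0.68). In *her3* cells 1 of 9 was higher and 2 were lower, beside 8.64% and 11.7% of all genes: *sox2* was higher (log2 0.51) and *cdkn1a* and *mdm2_1* lower (log2 −0.28 and −0.29). Between the genotypes none of 9 passed in *tbx6l* cells, where only 0.109% of all genes were called. The list median was 0.34, against 0.01 for all genes tested. In whole libraries, where 1.1% of all genes were called, 1 of 11 passed, *cdkn1a*, which was higher in M*rbm24a* (log2 0.54, SE 0.08, adjusted p = 0.0425, edgeR).

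Of 57 entries for other tissue-restricted RNA-binding proteins, 34 were tested in *tbx6l* cells, where 0 were higher and 4 lower, with a median of −0.05. The lower share is near the 10.1% of all genes called lower there, and 12.4% were called higher. The lower ones were *esrp1* (log2 −2.03, SE 0.30, adjusted p = 0.0034, edgeR) and *rbm47* (log2 −1.50, SE 0.20, adjusted p = 0.00239, edgeR), both known as regulators of RNA processing in epithelia, and *igf2bp2b* and *lin28b*. In *her3* cells (8.64% of all genes higher and 11.7% lower) 1 of 34 was higher, *celf2* (log2 0.38), and 5 were lower, with *esrp1*, *dnd1* and *rbm47* at log2 −2.88, −2.40 and −2.24. In *eve1* cells (13.7% and 10.9% of all genes) 1 of 34 was higher and 6 lower, and in *krt92* cells (16.5% and 6.62%) 6 of 34 were higher, led by *esrp1* (log2 8.28), *rbm47* (6.04) and *mbnl2* (5.19), and 4 lower. Most *krt92* cells were among the cells that *tbx6l* and *her3* cells were compared against. Their part in the lower *esrp1* and *rbm47* values was not tested. In *twist1a* cells (6.7% and 2.29% of all genes) 1 of 33 was higher and 2 lower, in *noto* cells (4.17% and 3.37%) 1 of 34 and 2, in *sox32* cells (11.1% and 7.24%) 1 of 34 and 6, and in *foxi1* cells (1.3% and 1.89%) 0 of 34 and 1. Between the genotypes 0 of 34 passed in *tbx6l* cells, where 0.109% of all genes were called. In whole libraries, where 1.1% of all genes were called, 2 of 38 were lower in M*rbm24a*, *dnd1*, a germ cell gene (log2 −3.18), and *esrp1* (log2 −0.55).

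Of the cells with *rbm24a*, 61.8% also had *rbm38*, against 42.9% of all cells, and of the cells with *rbm24b* 56.4% had it. Cells with *rbm24a* or *rbm24b* had a median of 19008 and 19167 UMIs, against 12720 in all cells, and the part of depth in these shares was not tested.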

How the data were processed

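The deposited matrix held estimated counts: the authors trimmed read 2 with Trimmomatic, mapped reads and counted UMIs with Cell Ranger, subtracted ambient RNA with DecontX, which leaves decimals, removed doublets with Scrublet and dropped barcodes outside a range around the median. Per the submitters' processing notes the genome build was GRCz10. Subtraction lowers counts of sparse genes such as *rbm24a*, and the libraries held 40176506 to 61973441 UMIs. Libraries were taken from the cell names and genotypes from the labels.

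Cells were summed per library and marker group (value over 0.5). Sums were rounded and tested with edgeR 4.0.16 in R 4.3.3 (its quasi-likelihood test after TMM scaling and the filterByExpr minimum, p-values adjusted by Benjamini-Hochberg across every tested gene, threshold 0.05), with the library as a block for marker-positive against marker-negative cells, and with 2 against 2 libraries for the genotypes, where an exact permutation test cannot go below p = 0.33. Levels are UMIs per 1000000 (CPM) of unrounded sums, with exact Poisson 95% intervals. The alternatives were DESeq2 1.42.0, RLE size factors, no filter, limma 3.58.1 on log2(CPM + 1), no library block, a replicate block, other marker cutoffs (1.5 and 4.5), cells with a single marker, cells of at least 5000 UMIs or of 5000 to 25000 UMIs, and each library left out. Cells with a single marker were set against all cells without that marker, whatever other markers these had. The cutoff of 4.5, the band of depth and the interaction were chosen after seeing the data. P-values were adjusted within each comparison, so they do not cover the choice among the 8 marker groups. The fitting code was tested on simulated data. Tables used Python 3.11.15, pandas 2.3.3 and numpy 2.4.6.

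The members and gene lists were chosen with earlier results of these data known. Named genes were the members, the markers, up to 4 called genes per list and comparison by the size of the log2 fold change, and the 10 genes most and 5 least correlated with *rbm38*. No sequences or coordinates were used here.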

Additional observations from a re-analysis of the deposited data

Results flagged for a closer look

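The difference between the genotypes in the step of *rbm38* from cells without to cells with *her3* passed the test of the difference itself (log2 0.48, SE 0.12, adjusted p = 0.0148, edgeR). That comparison called 621 of 16318 genes (3.81%), 555 with a higher and 66 with a lower step in M*rbm24a*. Among all 16318 genes *rbm38* ranked 2038 from the highest, so the call is not particular to it. *rbm38* was 69.7 and 56.3 CPM in sibling and 77.9 and 70.8 CPM in M*rbm24a* *her3* cells. In the same cells, where 1.27% of 14344 genes were called between the genotypes, 5 of 11 EVL entries were higher in M*rbm24a* (*anxa1c* log2 4.83 to *zgc:153665* 2.47) and the neural gene *foxb1a* was lower (log2 −1.11). The EVL marker *krt92* was found in only 1.24% and 3.04% of the sibling and 0.303% and 3.01% of the M*rbm24a* *her3* cells. The part of these markers was not tested. Over its alternatives the adjusted p ran from 7.62e-06 to 0.806, and the highest adjusted p came without sibling 2, the library with 20.7% of cells under 1000 UMIs.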

How the results depend on the processing

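With 42 results under 421 alternatives, 350 kept their direction and their side of the threshold (for shares, moved by less than 1 SD), 34 changed sign and 10 shares moved. With the same sign, 22 passed only under the alternative and 5 only in the reported fit. Those that changed sign were counted as such whether or not they passed, and some of them did pass. The cause was not tested for any of them, except that thinning lowers shares by its construction.

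Single-marker groups were set against cells that kept their other markers, *tbx6l* among them. Against the other cells, *rbm38* in *twist1a* cells was −0.46 (log2, as all values here) with only this marker, −0.089 over a cutoff of 4.5 and 0.20 in cells of 5000 to 25000 UMIs, and in *sox32* cells −1.03 with only this marker. In *krt92* cells it passed at −0.84 without the filter, −0.75 with limma, −0.57 without the library block, −0.72 over 1.5, −0.69 with only this marker, −0.84 over 4.5 and −0.74 in cells of 5000 to 25000 UMIs. *rbm24a* in *sox32* cells was −0.016 with limma. Leaving out each library gave −0.43 to 0.091 for *rbm24a* in *tbx6l* cells, −0.089 to 0.14 for *rbm24a* in *sox32* cells, and for *rbm38* −0.12 to 0.016 in *sox32*, −0.83 to −0.63 in *foxi1* and −0.67 to −0.50 in *krt92* cells.

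Between the genotypes, *rbm38* in *tbx6l* cells passed with DESeq2 (−0.56) and without the filter (−0.54). With only this marker it was 0.24 in *eve1*, 0.42 in *twist1a*, −0.69 in *noto* and 0.20 in *sox32* cells. In *sox32* cells it was 0.093 over 1.5 and 0.35 over 4.5, in *foxi1* cells −0.074 over 4.5, in *krt92* cells −0.13 with limma and −0.32 at 5000 to 25000 UMIs, and in whole libraries 0.011 at 5000 to 25000 UMIs. Leaving out each library, with a lone library assumed to vary like the others, gave −0.15 to 0.092 in *sox32*, 0.079 to 0.51 in *her3*, −0.10 to 0.17 in *krt92* cells and −0.066 to 0.028 in whole libraries, and −0.35 to 0.080 for the first *rbm24b* entry in whole libraries. Over all 14 alternatives *rbm38* in *her3* cells ran from 0.079 to 1.08.

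In the interaction, *rbm38* with *tbx6l* passed with DESeq2 (−0.94), without the filter (−0.92), with limma (−0.95), over 1.5 (−0.99) and at 5000 to 25000 UMIs (−0.67). Of its 13 alternatives, 6 did not pass, and all 13 lay between −1.09 and −0.52. The interaction with *her3* no longer passed with DESeq2 (0.48), over 1.5 (0.51) and over 4.5 (0.58). With only this marker it was 0.41 for *twist1a*, −0.65 for *noto*, which passed in the opposite direction (adjusted p = 0.0013, edgeR), and 0.19 for *sox32*. It was 0.081 over 1.5 and 0.35 over 4.5 for *sox32*, −0.00107 over 4.5 and 0.75 at 5000 to 25000 UMIs for *foxi1*, and −0.074 with limma and −0.36 at 5000 to 25000 UMIs for *krt92*. Leaving out each library gave −1.09 to −0.80 for *tbx6l*, −0.00164 to 0.29 for *noto*, −0.22 to 0.17 for *sox32*, 0.24 to 0.55 for *foxi1*, 0.21 to 0.78 for *her3* and −0.083 to 0.16 for *krt92*. Over all 13 alternatives the interaction with *her3* ran from 0.21 to 1.29.

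Thinned to 5000 UMIs, *rbm38* was found in 61.1% of *tbx6l*, 42.2% of *eve1*, 39.7% of *twist1a*, 29.6% of *noto*, 35.2% of *sox32*, 22.6% of *foxi1*, 20.8% of *her3* and 31.3% of all cells, *rbm24a* in 0.238% and the first *rbm24b* entry in 0.181% of all cells. Both *rbm24b* entries summed were found in 0.169% to 0.334% of all cells across the libraries.

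The study collected its cells in batches, the labels give the genotypes the same replicate numbers, and no source used here says whether a number marks a batch. Deviations of same-numbered libraries correlated at 0.31 in *tbx6l*, 0.50 in *eve1* and −0.17 in *foxi1* cells and at 0.10 in whole libraries. A replicate block changed no call of the members (*rbm38* in *tbx6l* cells −0.55, adjusted p = 0.0779, edgeR) and moved the genes called from 16 to 184 in *tbx6l* cells, from 3 to 107 in *eve1* cells and from 195 to 547 in whole libraries. Over all alternatives the genes called ran from 6 to 659 in *tbx6l*, 0 to 758 in *eve1*, 2 to 1837 in *her3* cells and 8 to 3689 in whole libraries between the genotypes (182 in *her3* cells as reported), from 56 to 1168 in the *her3* interaction (621 as reported), and from 1330 to 3889 for *tbx6l* (3499 as reported) and 107 to 1999 for *foxi1* cells (487 as reported) against the other cells.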
